A study of Mus musculus with 6 samples.

Results

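Branched-chain amino acid breakdown was followed through 7 genes that encode its first enzymes and their switch: Bcat1, Bcat2, Bckdha, Bckdhb, Dbt, Bckdk and Ppm1k. They were found by symbol among the 49997 genes of the count files, and 7 of 7 were present and passed the filter on low counts. They were chosen with the difference between Nr2e3-guide and control-guide libraries already known, so that difference is given below as a description. The number of members past the threshold of the fit over all genes is stated for orientation only, and is not evidence for them.

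The libraries came from sorted photoreceptors of Rosa26-Cas9 mice, which express the nuclease SpCas9 in all cells. The 3 guide libraries came from mice given anti Nr2e3 guide RNA, and the 3 control libraries from mice given control guide RNA (non-targeting, NTC), with 1 mouse and its 2 injected retinas per library. In both groups the guide was delivered under the retina by an adeno-associated virus with a 7m8 coat whose human GRK1 promoter drives the red reporter mCherry in photoreceptors. The sort took about 100000 cells with mCherry for each library, 6 months after the injection. The labels give the age at injection as postnatal day 21 in one place and 4 weeks in another. Guide replicate 1 and the 3 control animals were male, and guide replicates 2 and 3 were female, so most of the sex difference cannot be told apart from the guide.

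Leucine, isoleucine and valine are broken down in 2 shared steps before their routes part. A transaminase first moves the amino group to 2-oxoglutarate and so makes glutamate, the transmitter of photoreceptors. The branched-chain ketoacid dehydrogenase, a large complex of the mitochondrial matrix, then decarboxylates the ketoacid irreversibly. A kinase inhibits that complex by phosphorylating it, and a phosphatase reverses this.

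The libraries held 24705561 to 34286248 gene counts. Values are given in CPM, a gene's count scaled to a library total of 1000000 gene counts, on which scale 3 counts are worth 0.0875 to 0.121. Nr2e3, a nuclear receptor of rods, was at 2024, 1773 and 2303 CPM in guide replicates 1 to 3 and at 1695, 1608 and 1645 CPM in control replicates 1 to 3. Counts per gene do not show small insertions or deletions, and the level of Nr2e3 is therefore no check of the labels. Rod genes were abundant in every library, with Sag, the rod arrestin, at 31935 to 37623 CPM. The summed level of 10 rod genes was lower in guide libraries, at 153030 to 161200 CPM against 161380 to 178500 CPM in control libraries. By edgeR 0 of these 10 genes were called, and 7 had log2 fold changes above 0, in a range from -0.13 to 0.37. In sorted bulk RNA, fewer cells of a type and less RNA per cell cannot be told apart. Control replicate 3 stood apart from the other controls, with a summed level of 9 cone genes of 1480 CPM against 6696 and 7450 CPM and a sum of 10 microglial genes of 309 CPM against 29.4 and 33.8 CPM.

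The member with a difference between the groups was Bcat1, the cytosolic transaminase, which stood about 2-fold higher in guide libraries. The mitochondrial transaminase, the 3 subunits of the dehydrogenase, its kinase and its phosphatase overlapped between the groups in all cases. With edgeR (quasi-likelihood test, Benjamini-Hochberg adjustment over 17138 genes), 1 of 7 members passed an adjusted p of 0.05, Bcat1, and was higher, beside 0.315% of all genes tested. Since the members were chosen on this contrast, nothing is read from that count.

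**Figure D1:**
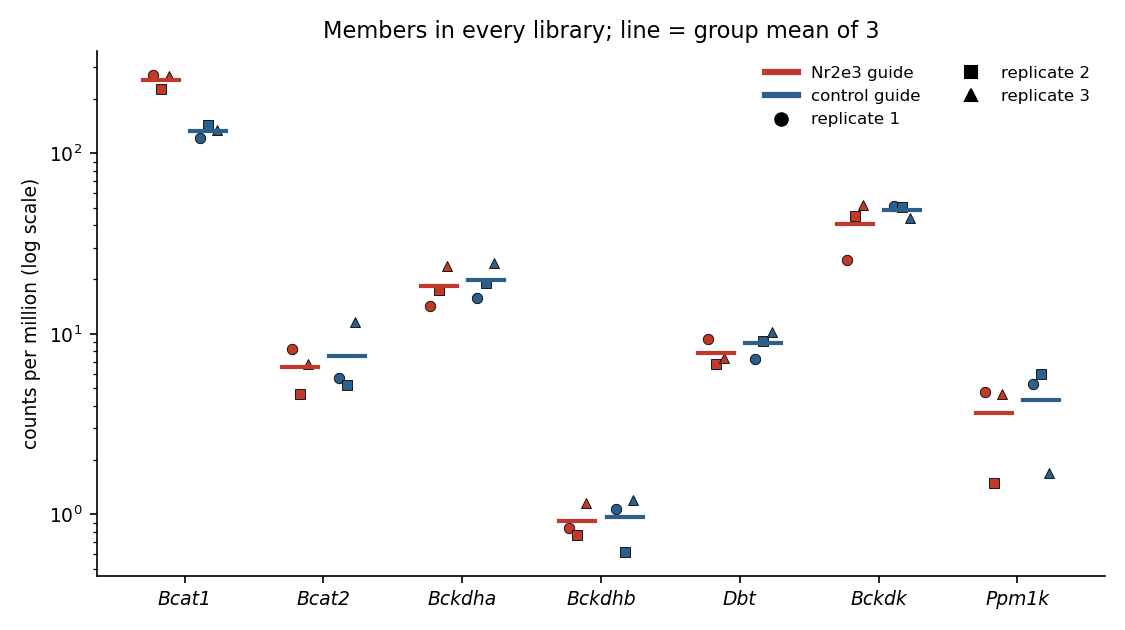
CPM (vertical log axis) of the 7 genes in the 3 Nr2e3-guide libraries (red) and the 3 control-guide libraries (blue), with 1 point per library, its shape giving the replicate, and a line at each group mean. The guide points of Bcat1, from 227 to 273 CPM, lie above its control points, from 121 to 143 CPM, while the points of the other genes overlap.

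Bcat1 lies on the minus strand of chromosome 6, from 144993835 to 145076184 (GRCm38, GENCODE M21), with 17 merged exons that span 9322 bases. It has annotated starts some distance apart, and the 250 bases before each RefSeq start (GRCm38.p6) are shown because the count of this gene adds up transcripts from both. The sequences are read 5′ to 3′ on the strand of the gene.
Bcat1 outer start, chr6:145076158-145076407, minus strand: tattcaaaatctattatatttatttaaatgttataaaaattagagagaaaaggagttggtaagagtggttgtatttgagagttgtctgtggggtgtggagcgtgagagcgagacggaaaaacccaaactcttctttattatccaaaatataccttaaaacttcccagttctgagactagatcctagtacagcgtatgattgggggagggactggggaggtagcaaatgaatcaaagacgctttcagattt
Bcat1 inner start, chr6:145048813-145049062, minus strand: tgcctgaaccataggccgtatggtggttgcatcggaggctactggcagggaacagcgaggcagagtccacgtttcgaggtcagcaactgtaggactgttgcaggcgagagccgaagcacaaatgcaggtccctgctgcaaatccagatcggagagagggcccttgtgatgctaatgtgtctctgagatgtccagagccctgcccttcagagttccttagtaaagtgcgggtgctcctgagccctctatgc

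Both windows were searched on both strands for TAATCC, a core bound by the photoreceptor factor Crx, and AAGTCA, a half-site of the type bound by Nr2e3. Neither held a match, which is why no letters are in capitals. The RefSeq windows found for Bcat2, Bckdha, Bckdhb, Bckdk and Ppm1k held no match either. Over 32851 windows of the same length, 6.25% held TAATCC and 13.1% held AAGTCA, and the absence of these letters here says nothing about binding elsewhere.

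Bcat1 was at 273, 227 and 267 CPM in guide replicates 1 to 3 and at 121, 143 and 135 CPM in control replicates 1 to 3. Every guide library lay above every control library, as held for 4.63% of all genes tested. The means were 255 ± 25.1 CPM and 133 ± 11.0 CPM (SD, n = 3 each), and the log2 fold change was 1.01 with a standard error (SE) of 0.13. The male guide library, at 273 CPM, was the highest of the 6, and with sex as a term the log2 fold change was 1.12, with 0 of 7 members called. Leaving out each library in turn gave 0.96 to 1.07. The edgeR call was lost without guide replicate 1, 2 or 3 and without control replicate 1 or 2, with 1 of 7 members called in the full set and 0 of 7 in each of these. It was also lost with the replicate number as a block and without both replicate-3 libraries, at 0 of 7 in each.

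Gm26666, a non-coding gene on the opposite strand (chromosome 6, 145047559 to 145050430, GENCODE M21), lies across the inner start of Bcat1. It shares 337 exonic bases with Bcat1 in 2 stretches, 145047559 to 145047645 and 145048563 to 145048812, and the rest of it is intron for transcripts from the outer start. Gm26666 was at 23.5, 25.4 and 19.9 CPM in guide replicates 1 to 3 and at 6.22, 8.76 and 6.30 CPM in control replicates 1 to 3. Its log2 fold change was 1.77 (SE 0.24, edgeR adjusted p = 0.0412, higher in 3 of 3 guide libraries). Gm26666 was picked with its values in view. The library kit does not mark strand, so reads of Gm26666 and of Bcat1 introns or shared exons cannot be told apart. Bcat1 had 3953 to 8824 counts per library and Gm26666 203 to 657.

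Signals of other cell types were read beside this difference. The summed level of 10 Muller glia genes ran from 165 to 374 CPM with the Nr2e3 guide and from 198 to 390 CPM with the control guide, that of 10 microglial genes 32.6 to 158 and 29.4 to 309 CPM, and that of 8 bipolar cell genes 431 to 506 and 438 to 495 CPM. The sum of 8 amacrine genes was 55.9 to 278 CPM with the Nr2e3 guide and 145 to 318 CPM with the control guide. These 4 sums overlapped between the groups, and 0 of their 36 genes passed the edgeR test (1, Otx2, at an unadjusted p under 0.05). Otx2 held the largest part of the bipolar sum, so that sum says little about the other bipolar genes. Its level was 296 to 308 CPM with the Nr2e3 guide and 240 to 279 CPM with the control guide. Alone of the 8 bipolar genes, it had a log2 fold change above 0, at 0.31, and groups that did not overlap. The sum of 8 pigment epithelium genes was lower in guide libraries, at 1.30 to 4.29 against 6.30 to 17.2 CPM, with Rpe65, its visual cycle isomerase, at 0 in 4 of the 6 libraries. In control replicate 3 that sum rested on Rdh5, at 5.54 of 6.30 CPM, with Dct and Tyrp1 at 0. Exons of Rdh5 overlap those of Bloc1s1 on the same strand (GENCODE M21). Rgr, of the same list, had a log2 fold change of 0.41 (SE 0.88). The sum of 9 cone genes was higher, at 11602 to 14843 against 1480 to 7450 CPM, and its part in the level of Bcat1 was not tested. That sum was carried by Gnat2, Pde6c and Pde6h, with log2 fold changes of 3.30, 2.79 and 1.97, while the other 6 cone genes, opsins and cone arrestin among them, had log2 fold changes of -0.83 to -0.36. By edgeR, 0 of the 9 cone genes and 0 of 4 tested pigment epithelium genes passed (3 and 1 at an unadjusted p under 0.05). Control replicate 3 had the lowest cone sum and Bcat1 at 135 CPM, between the other controls, and nothing is read from this 1 library.

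Bcat2, the mitochondrial transaminase of most tissues (chromosome 7, 45570153 to 45589711), was far less abundant. It was at 8.21, 4.61 and 6.80 CPM in guide replicates 1 to 3 and at 5.67, 5.22 and 11.6 CPM in control replicates 1 to 3. The groups overlapped, and the highest and the lowest library belonged to different groups, control replicate 3 and guide replicate 2. Its log2 fold change was -0.10 (SE 0.37), and 2 SE on either side span -0.84 to 0.63. Without control replicate 3 the log2 fold change was 0.28.

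Bckdha encodes the alpha subunit of the decarboxylase, the part that the kinase phosphorylates (chromosome 7, 25629946 to 25658981). It was at 14.2, 17.6 and 23.8 CPM in guide replicates 1 to 3 and at 15.8, 19.1 and 24.6 CPM in control replicates 1 to 3. Both groups covered nearly the same range, and the log2 fold change was -0.02 (SE 0.23, 2 SE from -0.49 to 0.44). In GENCODE M21, 1171 of its 1899 exonic bases overlap a transcript of B3gnt8 on the opposite strand. B3gnt8 itself had 0 counts in 5 libraries and 6 in control replicate 3. Reads in shared bases may have been counted for neither gene, so these counts do not show how many Bckdha lost.

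Bckdhb encodes the beta subunit of the same decarboxylase (chromosome 9, 83925145 to 84124240) and was the member with the fewest reads. It had 23, 19 and 38 counts in guide replicates 1 to 3 and 35, 21 and 41 counts in control replicates 1 to 3. That is 0.843, 0.769 and 1.15 CPM against 1.07, 0.619 and 1.20 CPM, with overlapping groups. The log2 fold change was 0.00498 with an SE of 0.49, so that 2 SE span -0.98 to 0.99 and a change of nearly 2-fold in either direction was not detectable at this depth.

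Dbt encodes the transacylase core to which the other subunits bind (chromosome 3, 116513070 to 116549981). It was at 9.35, 6.76 and 7.31 CPM in guide replicates 1 to 3 and at 7.29, 9.14 and 10.2 CPM in control replicates 1 to 3. The groups overlapped, with a log2 fold change of -0.10 (SE 0.24, 2 SE from -0.59 to 0.38).

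Bckdk, the kinase that switches the complex off (chromosome 7, 127904082 to 127910221), was at 25.5, 44.8 and 51.4 CPM in guide replicates 1 to 3 and at 51.1, 50.5 and 43.9 CPM in control replicates 1 to 3. Guide replicate 1 was the lowest library, guide replicate 2 lay within the control range and guide replicate 3 just above it. The log2 fold change was -0.19 (SE 0.26) over all libraries, 0.05 without guide replicate 1 and -0.85 with sex as a term, a fit in which guide replicate 1 carries the guide effect.

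Ppm1k, the mitochondrial phosphatase that switches the complex on (chromosome 6, 57506502 to 57535468), varied most of the 7 on a log2 scale between libraries of a group. It was at 4.73, 1.50 and 4.62 CPM in guide replicates 1 to 3 and at 5.27, 5.99 and 1.69 CPM in control replicates 1 to 3. The low libraries were guide replicate 2, with 37 counts, and control replicate 3, with 58 counts. The log2 fold change was -0.22 (SE 0.60), -0.63 without control replicate 3 and 0.13 without guide replicate 2.

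**Figure D2:**
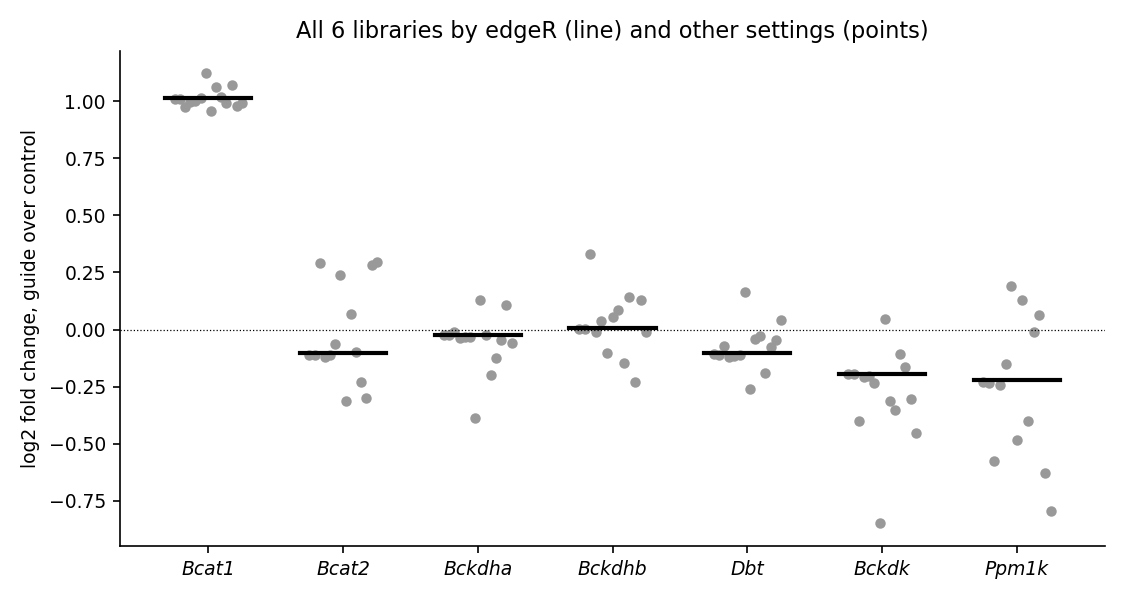
Log2 fold change of guide over control (vertical axis) for each of the 7 genes, with a black line for edgeR on all 6 libraries and grey points for the other settings, which use other tools, filters or terms or leave out libraries. The points of Bcat1 lie from 0.96 to 1.12, and those of each other gene lie on both sides of 0.

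Levels of different genes were compared per length, as TPM, the count per merged exon base (GENCODE M21) scaled to a library total of 1000000. In control libraries the order was Bcat1, Bckdk, Bckdha, Dbt, Bcat2, Ppm1k and Bckdhb. Bcat1 was at 45.1 to 53.1 TPM, Bckdk at 43.5 to 48.0 TPM and Bckdha at 29.0 to 47.5 TPM, and these 3 ranges overlapped. Dbt, at 7.57 to 11.2 TPM, lay below them all and overlapped Bcat2, at 4.64 to 10.9 TPM. Ppm1k, at 1.03 to 3.44 TPM, and Bckdhb, at 1.19 to 2.43 TPM, formed the lowest pair and overlapped each other. Merged exons count rarely used exons too, and so understate the level of genes with many isoforms. Bases shared with a gene on the opposite strand are in the length too, 1171 of 1899 for Bckdha and 622 of 3900 for Bcat2. Where reads there were left uncounted, the level and place of these genes are understated.

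**Figure D3:**
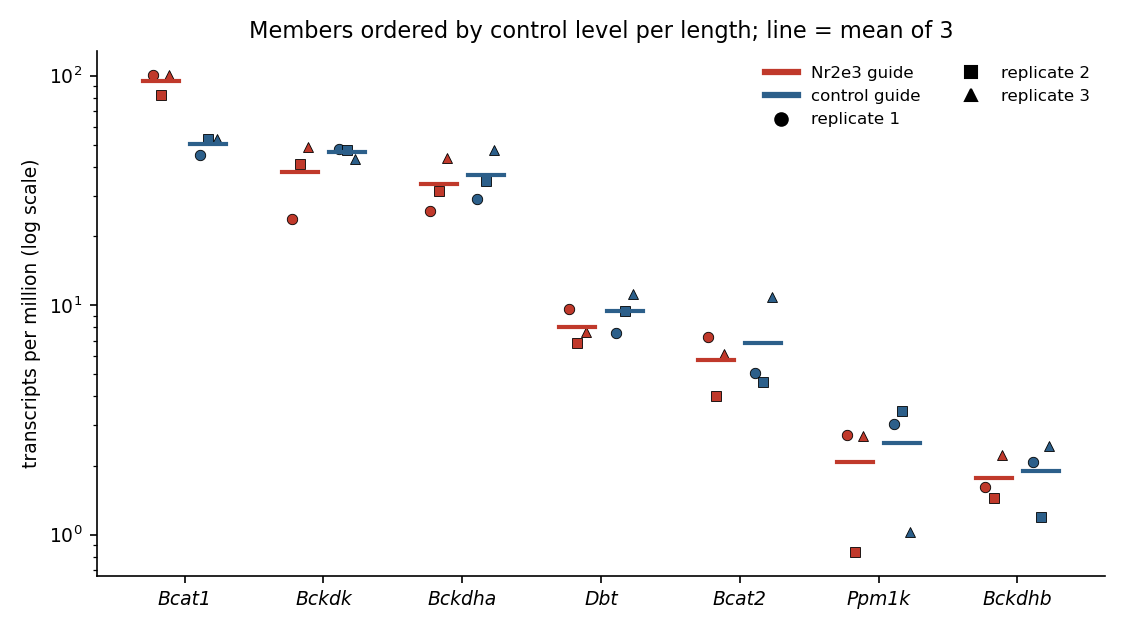
TPM (vertical log axis) of the 7 genes in every library, ordered from left to right by their control mean, with guide libraries in red, control libraries in blue, replicates by shape and group means as lines. In controls Bcat1, Bckdk and Bckdha lie together at 29.0 to 53.1 TPM, and Bcat1 alone lies at 82.3 to 101 TPM in guide libraries.

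The balance between the transaminases was on the side of the cytosolic enzyme in all 6 libraries. The ratio of Bcat1 to Bcat2 in TPM was 13.9, 20.6 and 16.4 in guide replicates 1 to 3 and 8.94, 11.5 and 4.87 in control replicates 1 to 3. Bcat1 made up 58.8, 49.1 and 47.4% of the summed TPM of the 7 genes in guide libraries and 32.3, 34.5 and 31.3% in control libraries. These shares follow from the difference in Bcat1 and are no separate result. The other 6 genes summed to 70.9 to 111 TPM in guide and 94.7 to 117 TPM in control libraries.

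Within the complex, transcripts of the subunits were far from equal. The ratio of Bckdha to Bckdhb in TPM was 14.0, 29.2 and 19.6 in control replicates 1 to 3 and 16.0, 21.7 and 19.7 in guide replicates 1 to 3. Reads left uncounted in the shared bases of Bckdha would make this ratio too low. The kinase exceeded the phosphatase in every library, with a ratio of Bckdk to Ppm1k of 13.7 to 42.3 in control and 8.79 to 48.8 in guide libraries. Dld, the lipoamide dehydrogenase that this complex shares with those of pyruvate and 2-oxoglutarate, was at 149 to 168 TPM in control libraries.

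The rest of the pathway was read from 66 other genes in 10 lists, from transporters to sister complexes, of which 63 passed the count filter. Of these, 1 was called higher and 0 lower by edgeR, with 3 at an unadjusted p under 0.05, beside 0.315% called higher and 0.0292% called lower of all 17138 genes. The lists were chosen with earlier results of these data known, so this count is given for orientation only. Their median log2 fold change was 0.02, against -0.01 for all genes tested. The groups did not overlap in 5 of the 63 with the guide higher and in 2 with the guide lower. Over all 17138 genes this held for 793 (4.63%) and 1294, so nothing is read from single genes below whose groups did not overlap.

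The gene called was Pdha1, which encodes the alpha subunit of the decarboxylase of the pyruvate dehydrogenase complex (chromosome X, 160122209 to 160138413). In GENCODE M21 its exons overlap those of Map3k15 on the opposite strand, and reads there cannot be told apart. It was at 141, 119 and 115 CPM in guide replicates 1 to 3 and at 42.8, 43.2 and 47.4 CPM in control replicates 1 to 3. Every guide library lay above every control library, and Pdha1 was 2.96-fold higher (log2 fold change 1.57, SE 0.14, edgeR adjusted p = 0.00913). Since its list was chosen with earlier results of these data known, this p is given as a description. The call was lost without control replicate 1 or 2, at log2 fold changes of 1.58 and 1.55, and with sex as a term, at 1.75. The other 6 genes of the sister complexes did not pass, among them its partner Pdhb.

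**Figure D4:**
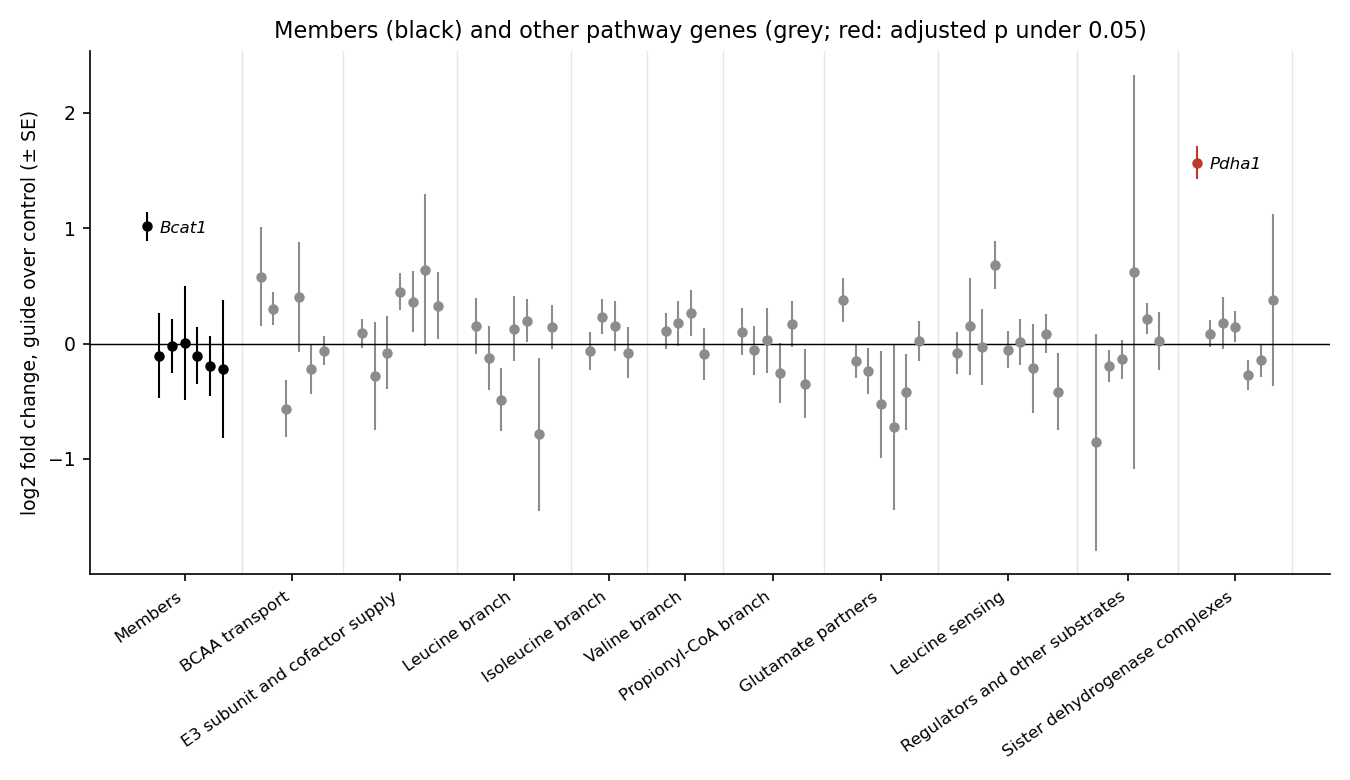
Log2 fold change of guide over control with its SE (vertical axis) for the 7 members in black and the 63 other tested pathway genes by list, in grey or, with an edgeR adjusted p under 0.05, in red. Bcat1 at 1.01 and Pdha1 at 1.57 stand above the rest, which lie between -0.85 and 0.68.

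Amino acid transporters did not pass, with 0 of 6 tested genes called and 0 at an unadjusted p under 0.05. Slc25a44, the mitochondrial carrier of branched-chain amino acids, averaged 75.0 ± 8.25 CPM with the Nr2e3 guide and 82.5 ± 8.86 CPM without it (SD, n = 3 each; log2 fold change -0.06, SE 0.13). Slc7a8, a transporter of large neutral amino acids at the cell surface, averaged 54.3 ± 16.8 CPM with it and 84.8 ± 27.9 CPM without (log2 fold change -0.56, SE 0.25, edgeR adjusted p = 0.902), with overlapping groups.

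Of 7 tested genes for the shared Dld subunit and the supply of lipoate and thiamine, 0 were called and 1 had an unadjusted p under 0.05. That gene was Lias, the lipoate synthase, at 57.2, 63.2 and 59.1 CPM in guide replicates 1 to 3 and 50.3, 45.5 and 42.3 CPM in control replicates 1 to 3. Its groups did not overlap, but its log2 fold change of 0.45 (SE 0.16) had an edgeR adjusted p of 0.719. Dld had a log2 fold change of 0.09 (SE 0.13).

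The routes after the dehydrogenase held 0 called genes and 0 at an unadjusted p under 0.05 by edgeR. They comprise 7 genes for leucine, 4 for isoleucine, 4 for valine and 6 for propionyl-CoA, with median log2 fold changes of 0.13, 0.04, 0.14 and -0.02. For leucine, the log2 fold change was 0.15 (SE 0.24) for Ivd, the isovaleryl-CoA dehydrogenase. Mccc2, a subunit of methylcrotonyl-CoA carboxylase, was at -0.49 (SE 0.28, adjusted p = 0.989). For isoleucine, Echs1, an enoyl-CoA hydratase that also serves valine, was at 0.23 (SE 0.15), and Acat1, the thiolase, at -0.08 (SE 0.22). For valine, Acad8, the isobutyryl-CoA dehydrogenase, was at 0.11 (SE 0.15), and Hibadh, the hydroxyisobutyrate dehydrogenase, at 0.26 (SE 0.20). For propionyl-CoA, Pccb, a carboxylase subunit, was at -0.06 (SE 0.21). Mmaa and Mmab, which prepare the cobalamin cofactor of the mutase, were at 0.17 (SE 0.20) and -0.35 (SE 0.30).

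Enzymes that turn over the glutamate made by transamination did not pass either, with 0 of 7 called and 0 at an unadjusted p under 0.05 by edgeR. Got1 and Got2, the cytosolic and mitochondrial aspartate transaminases, were abundant, at 511 ± 27.1 against 603 ± 132 CPM and 404 ± 16.1 against 497 ± 95.0 CPM (SD, n = 3 each). Their log2 fold changes were -0.16 (SE 0.15) and -0.24 (SE 0.20). Glud1, glutamate dehydrogenase, was at 22.9 ± 1.71 against 18.6 ± 2.72 CPM. Its groups did not overlap, and its log2 fold change of 0.37 (SE 0.19) had an edgeR adjusted p of 0.951.

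Among 9 genes that link leucine to the growth kinase complex mTORC1, 0 were called and 1 had an unadjusted p under 0.05. Sar1b, a small GTPase of vesicle coats that is also described as a leucine sensor, was at 281, 274 and 230 CPM in guide replicates 1 to 3 and 195, 181 and 138 CPM in control replicates 1 to 3. Its groups did not overlap, and its log2 fold change of 0.68 (SE 0.20) had an edgeR adjusted p of 0.52. Sesn1, a sestrin, was at -0.08 (SE 0.18). Of 6 tested regulators and other substrates, 0 were called and 0 had an unadjusted p under 0.05, with Acly, the citrate lyase that the kinase Bckdk also phosphorylates, at 0.21 (SE 0.13) and Hif1a at 0.02 (SE 0.25).

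The genes most like Bcat1 over the 6 libraries were Arsb, Tmem164, Iqsec3, Epha10 and Ccng2, out of 9545 genes with a mean of at least 5 CPM. Likeness was Pearson's r of log2(CPM + 1), which was 0.995 for Arsb, 0.993 for Tmem164, 0.991 for Iqsec3 and Epha10 and 0.988 for Ccng2. The 6 libraries fall into the groups compared, so these values mostly restate a difference between them. Arsb, a lysosomal sulfatase, was closest in size too, at 7.09 ± 0.336 against 3.62 ± 0.366 CPM (SD, n = 3 each). Tmem164, at 80.2 ± 19.5 against 3.74 ± 1.52 CPM, differed far more than Bcat1. Among the other members at this level, r with Bcat1 was -0.05 for Bcat2, -0.13 for Bckdha, -0.25 for Dbt and -0.51 for Bckdk.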

How the data were processed

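Raw read counts per gene symbol were deposited by the authors, 1 table per library. Build GRCm38 (mm10), HTSeq 0.12.4, STAR 2.7.3a, cutadapt and DESeq2 1.42.0 are named in the submitters' processing notes. For annotation and strand setting, the sources used here name none. Per the labels' protocols, cDNA was made with the SMARTer Ultra Low RNA kit, known not to mark strand. The 5 entries that name no gene held 21.6 to 23.7% of counts and were left out. The reads carry no molecular identifiers, so the CPM worth of 3 counts covers counting error only, whereas SE values include the spread between animals.

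The group comparison used edgeR 4.0.16 and R 4.3.3 (TMM, filterByExpr by group with min.count 10 and 15 in total, glmQLFit and glmQLFTest, group as the only term, Benjamini-Hochberg adjusted p under 0.05 over all genes), which was tested on simulated data. SE is the log2 fold change over the square root of its F statistic. CPM uses plain library totals. TPM uses the 37893 symbols matched to 1 GENCODE M21 gene, which held 89.9 to 93.9% of counts.

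Within groups, counts of library pairs differed by 15.7 to 151 times the sampling variance, so none was a duplicate. Members and lists were chosen with earlier results of these data known. Named are all members, the genes called in each list or, with none called, the 2 of highest level and the 1 of smallest p, and the 5 genes most like the member of largest fold change. A gene that this rule takes is not reported here. Mut and Lars1, alternative symbols in the lists, are counted under Mmut and Lars. Other settings were DESeq2 size factors, the DESeq2 Wald test, limma-voom 3.58.1, other count filters, a replicate block, sex as a term and leaving out libraries. Leaving out both replicate-3 libraries was added after seeing the data.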

Additional observations from a re-analysis of the deposited data

How the results depend on the processing

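The log2 fold change of Bcat1 stayed within 0.96 to 1.12 over 14 other settings, and the count of members called moved from 1 to 0 in 8 of them. These were the replicate block, sex as a term, the fits without both replicate-3 libraries and 5 of the 6 fits without 1 library (range 0 to 1). The other 6 members changed sign between settings. Of the pathway genes, 1 was called with all libraries, 0 with sex as a term and 0 to 1 without 1 library. Over all genes tested, 54 were called higher and 5 lower. The counts were 185 and 57 with the DESeq2 Wald test, 160 and 19 with limma-voom, 130 and 25 with no count filter, 31 and 1 with the replicate block and 6 and 0 with sex as a term (1305 at an unadjusted p under 0.05). Leaving out 1 library gave 14 to 80 higher and 0 to 9 lower from fewer samples, and the cause of the other moves was not tested. The replicate numbers name different animals. Deviations of same-numbered libraries from their group means correlated at 0.128, -0.143 and 0.031, and not every library correlated best with its own number. Deviations from a mean of 3 libraries depend on each other, so these values cannot show whether same-numbered libraries were handled together. In both groups, pairs with replicate 3 differed most. In multiples of the sampling variance, guide pairs were at 72.6 and 82.4 against 42.3, and control pairs at 150.6 and 114.5 against 15.7. A batch shared by the replicate-3 libraries was not tested. Without length correction, Bcat1 held 59.6% of the members' summed control level, against 32.7% per length. Bckdhb and Ppm1k were not tested under a mean of at least 5 CPM, and few counts limit both.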

Other observations

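Single libraries set several levels along the pathway, and these genes were chosen after their values were seen. Guide replicate 1, the male guide library, was the lowest of the 6 libraries in Bckdk (25.5 CPM), Bckdha (14.2 CPM), Mccc2 (10.2 CPM, against 16.8 to 29.1 CPM in the others) and Mmab (8.40 CPM, against 13.2 to 22.9 CPM). Control replicate 3 was the highest in Slc7a8 (116 CPM, against 43.2 to 75.5 CPM) and in Got1 (751 CPM, against 480 to 559 CPM). It was also the highest in Ogdh, the decarboxylase of the 2-oxoglutarate dehydrogenase complex, at 408 CPM against 314 and 321 CPM in the other controls. In guide libraries Ogdh was at 243 to 304 CPM, below every control, as held for 1294 of 17138 genes tested. Its log2 fold change was -0.27 (SE 0.13, edgeR adjusted p = 0.926). The libraries lowest in Ppm1k, guide replicate 2 and control replicate 3, were also those with the highest sums of microglial genes, 158 and 309 CPM, and their part in the level of Ppm1k was not tested.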
